A study of Mus musculus with 6 samples.

Results

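The genes described here are 40 genes of glycolysis and of the hypoxia response, taken by name from a table of 25683 genes. Under those names the table held 39 of them. The missing name was Aldoa, the main aldolase, which the table carries as 2 separately named entries given beside the set and not counted in it. Of the 39, 38 had enough reads to be tested, and Hif3a, a less studied HIF alpha subunit, had 1 read in knock-out library 1 and 0 in the 5 others.

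RNA was measured by poly(A)-selected sequencing in 6 libraries of cultured mouse aortic cells, which the labels describe as a primary culture line of aortic smooth muscle. There were 3 libraries of Nt5e knock-out cells (libraries 1 to 3) and 3 of wild-type cells (libraries 4 to 6). The protein of Nt5e, CD73, is the surface enzyme that makes extracellular adenosine from AMP. Both genotypes were grown in 10% serum and then kept in 0.5% serum for 48 h, a step that the submitters describe as inducing differentiation, so serum withdrawal was common to all libraries. Oxygen is not among the conditions that the labels vary. How the Nt5e allele was made, and the strain, sex and age of the animals, are not given in the labels. The labels also leave unsaid which animal or culture each library came from. The p-values below rest on the spread among these 6 libraries, some of which may be technical.

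Hypoxia-inducible factors are pairs of an oxygen-sensitive alpha subunit (Hif1a, Epas1, Hif3a) and a stable partner, Arnt. With oxygen present, the prolyl hydroxylases Egln1, Egln2 and Egln3 mark the alpha protein, and the ubiquitin ligase adaptor Vhl has it destroyed, so the factor is controlled mainly at the level of protein. When stable, HIF binds a short DNA element with the core ACGTG or GCGTG and raises transcripts for glucose transport, glycolysis, lactate production and export, pH control, mitophagy and collagen folding. Egln3 and, more weakly, Egln1 are themselves HIF targets and act as feedback brakes. Vascular smooth muscle relies on glycolysis for part of its energy supply even when oxygen is present.

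The HIF core element was looked up upstream of the members, because known HIF targets among them moved in opposite directions between the genotypes. The sequences below are from RefSeq (GRCm38.p6) and cover the 250 bases before the annotated start, on the strand of the gene, with every full match to ACGTG or GCGTG on either strand (CACGT or CACGC on the opposite one) in capitals. They belong to Egln1 at chr8:124949255-124949504 (minus strand), Ero1l at chr14:45318573-45318822 (minus strand), P4ha1 at chr10:59323046-59323295 (plus strand), Egln3 at chr12:54203875-54204124 (minus strand) and Pdk1 at chr2:71872974-71873223 (plus strand). Egln1, Ero1l and P4ha1 were higher in the knock-out, and Egln3 and Pdk1 were lower.
Egln1: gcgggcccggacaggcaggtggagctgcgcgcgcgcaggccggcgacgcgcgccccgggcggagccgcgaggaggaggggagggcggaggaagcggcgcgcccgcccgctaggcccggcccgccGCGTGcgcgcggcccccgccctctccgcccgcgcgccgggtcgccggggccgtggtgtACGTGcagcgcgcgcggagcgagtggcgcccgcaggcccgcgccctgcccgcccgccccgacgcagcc
Ero1l: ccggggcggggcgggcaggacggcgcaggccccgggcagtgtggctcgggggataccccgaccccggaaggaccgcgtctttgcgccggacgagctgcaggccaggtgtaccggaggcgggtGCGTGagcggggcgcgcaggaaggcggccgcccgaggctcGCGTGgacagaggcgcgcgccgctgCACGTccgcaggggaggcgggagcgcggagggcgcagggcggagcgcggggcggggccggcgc
P4ha1: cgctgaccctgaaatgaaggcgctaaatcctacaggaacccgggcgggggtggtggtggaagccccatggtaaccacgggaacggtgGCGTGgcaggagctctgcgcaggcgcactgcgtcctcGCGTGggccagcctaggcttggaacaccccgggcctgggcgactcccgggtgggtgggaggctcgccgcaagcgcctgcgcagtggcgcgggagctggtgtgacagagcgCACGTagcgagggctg
Egln3: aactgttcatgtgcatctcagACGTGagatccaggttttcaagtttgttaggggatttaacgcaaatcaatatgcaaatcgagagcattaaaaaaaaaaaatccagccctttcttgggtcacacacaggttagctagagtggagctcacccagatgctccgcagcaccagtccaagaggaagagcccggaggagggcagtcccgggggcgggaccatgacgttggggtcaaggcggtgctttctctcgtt
Pdk1: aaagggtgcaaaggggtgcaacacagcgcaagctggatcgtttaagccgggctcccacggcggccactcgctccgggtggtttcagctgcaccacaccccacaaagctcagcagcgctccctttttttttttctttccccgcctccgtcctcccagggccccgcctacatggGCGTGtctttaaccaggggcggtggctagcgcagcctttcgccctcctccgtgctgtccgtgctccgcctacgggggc
The first base of the matches lay at -126 and -68 in Egln1, at -128, -88 and -63 in Ero1l, at -163, -126 and -16 in P4ha1, at -229 in Egln3 and at -78 in Pdk1. A second match of Pdk1, starting at -2, spans the start site. Over 300 bases (250 before and 50 after the start, a CACGTG counting once on each strand), and with the entry nearest to the start in the deposited table taken for each gene, 29 of 36 members held a match, or 80.6%, against 63.6% of 9988 tested genes and 43.8% of all 32851 promoters. The match was present in 6 of the 7 members that were higher, 3 of the 6 that were lower, 19 of the 22 that did not pass and the untested Hif3a. Where a match in any of a gene's entries is counted, Hk1 and Pkm join them, which makes 31 of 36 members, or 86.1%, against 67.8% of the tested genes. Matches thus occurred upstream of genes that moved either way and of genes that did not pass. The 3 members outside the 36 are Epas1, Slc2a3 and Ndrg1. Even the nearest entry lay 6492 bases from the deposited start for Hif1a, 5857 for Ankrd37 and 4329 for Ldha. These genes are counted as holding a match, Hif1a among the members that were lower. A match is a stretch of letters and not a measured binding site.

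Depth was 19919095 to 23669252 exon reads per library. The targeted gene fitted the labels, with 22, 1 and 2 exon reads of Nt5e in the 3 knock-out libraries, against 615, 688 and 486 in the 3 from wild-type cells. The libraries were not evenly spaced. The coefficient of variation beyond read sampling was 3.65% for the pair of knock-out libraries 2 and 3, and 3.48% for the pair of wild-type libraries 4 and 6. It was 14.2% to 15.02% between wild-type library 5 and its group, and 37.9% to 38.2% between knock-out library 1 and its group, about as much as the 37.4% to 39.9% between that library and the wild-type ones. For this reason the calls are also given with knock-out library 1 left out, and with each close pair added up into 1 sample. Among the 10 smooth muscle markers, some were close to absent, with 4 and 2 Des reads and 5 and 2 Myocd reads summed over knock-out and wild-type libraries, and Myh11 between 0.05 and 3.56 CPM. Others were present, with Acta2 at 73.8, 546 and 525 CPM in the knock-out and 69.2, 51.9 and 100.99 CPM in the wild type. Of the 6 tested, Smtn was higher and Cnn1 lower in the knock-out. The 10 summed to 188 to 700 CPM (counts per 1e6 reads, normalised by TMM) in knock-out and 137 to 208 CPM in wild-type libraries. The 9 mesothelium markers summed to 70.0 to 197 CPM in knock-out against 3009 to 3145 CPM in wild-type libraries, and 8 of the 8 tested were lower in the knock-out. Krt8 and Krt18, mesothelial keratins, had 0 reads in every knock-out library, but were also low in the wild type, with 43 and 21 reads summed. The 7 fibroblast markers summed to 4105 to 6026 CPM in knock-out and 3630 to 3741 CPM in wild-type libraries, with 3 of 7 higher in the knock-out. The 5 endothelial markers summed to at most 6.69 CPM and the 5 leukocyte markers to at most 4.32 CPM, with Tie1 and Ptprc at 0 reads throughout. At these low levels, the 1 endothelial marker tested, Kdr, was higher in the knock-out, with 296 reads summed against 36 (log2 fold change 3.17, edgeR adjusted p = 0.0138). Of the 2 leukocyte markers tested, Cd68 was lower, with 38 reads against 205 (log2 fold change -2.33, edgeR adjusted p = 0.00704). The part of these marker differences in the results was not tested. In such bulk samples, fewer cells of a type and less RNA per cell cannot be told apart.

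Of the 38 tested members, 7 were higher and 7 lower in the knock-out, at an adjusted p under 0.05 (edgeR quasi-likelihood F test, Benjamini-Hochberg over 12660 genes). Over all tested genes 14.1% were higher and 13.7% lower, so the members' 18.4% in each direction was near the background. With scaling by total counts, 1353 genes were higher and 2022 lower in place of 1788 and 1736, while the members gave 7 and 8. In the fit over 6 libraries, the set as a whole leaned neither way. Its median log2 fold change (knock-out over wild type) was -0.02, against 0.02 for all tested genes, and its median absolute log2 fold change was 0.53, against 0.34. The knock-out libraries differed in this. The members' median log2 ratio to the wild-type mean was -0.34 in library 1, 0.19 in library 2 and -0.014 in library 3. For all tested genes it was -0.0057, -0.0028 and 7.5e-05. Groups did not overlap in CPM for 8 members that were higher and 10 that were lower, together 47.4% of 38, against 24.3% higher and 25.5% lower, together 49.7%, of all tested genes. All 14 members that passed were among these 18. Members with the same role often differed in direction.

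**Figure D1:**
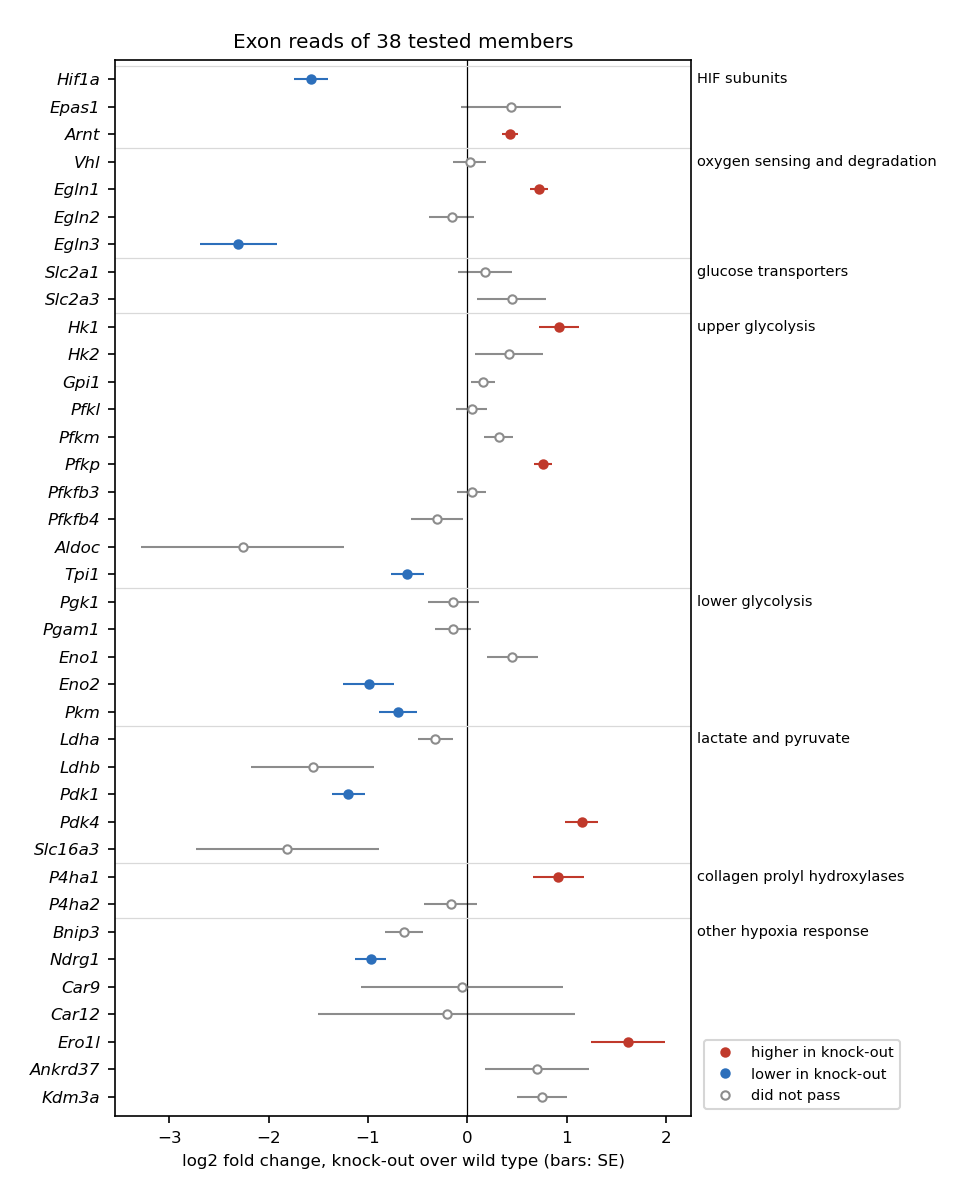
Log2 fold changes (x axis, knock-out over wild type, exon reads, 3 libraries each) of the 38 tested members, grouped by role from top to bottom, with bars for the standard error. Filled red points are the 7 members higher in the knock-out, filled blue points the 7 lower, and open grey points the 24 that did not pass at an adjusted p under 0.05.

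Among the HIF subunits, the principal alpha subunit was lower in the knock-out and its partner higher. Hif1a (chromosome 12, 73901375 to 73947530, plus strand, GRCm38) had 186, 228 and 224 CPM in the knock-out (libraries 1, 2 and 3), against 593, 770 and 533 CPM in the wild type (libraries 4, 5 and 6). Values below follow that order of libraries. All knock-out libraries lay below all wild-type ones, and knock-out library 1 was the lowest, farther from the wild type than libraries 2 and 3. The log2 fold change was -1.57 ± 0.17 (SE), or 2.97-fold lower (edgeR adjusted p = 0.00306). Arnt had 93.5, 105 and 109 CPM in the knock-out, against 75.0, 77.9 and 75.5 CPM in the wild type. Its groups did not overlap, and its log2 fold change was 0.43 ± 0.08 (edgeR adjusted p = 0.0149). Epas1, which encodes HIF-2 alpha, had 34.9, 17.8 and 15.3 CPM in the knock-out, against 19.0, 7.56 and 23.7 CPM in the wild type. It varied more than 2-fold within each genotype, the groups overlapped, and it did not pass (log2 fold change 0.44 ± 0.50, edgeR adjusted p = 0.539).

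The oxygen-sensing hydroxylases split. Egln1 (PHD2), held to be the main oxygen sensor under normal oxygen, had 116, 142 and 124 CPM in the knock-out, against 75.6, 77.8 and 79.0 CPM in the wild type. This was 1.65-fold higher with no overlap (log2 fold change 0.72 ± 0.09, edgeR adjusted p = 0.00528). Egln3 (PHD3; chromosome 12, 54178981 to 54203860, minus strand) had 7.40, 5.37 and 2.93 CPM in the knock-out, against 22.9, 34.6 and 20.2 CPM in the wild type. It was 4.93-fold lower, the largest fall among the 14 members that passed (log2 fold change -2.30 ± 0.39, edgeR adjusted p = 0.0104). Hif1a and Egln3 thus lay below every wild-type library in all 3 knock-out libraries, and Egln1 above. Vhl had 30.4, 44.4 and 45.4 CPM in the knock-out and 39.5, 41.1 and 37.6 CPM in the wild type, and Egln2 had 43.9, 76.8 and 79.4 CPM in the knock-out and 77.2, 73.2 and 73.0 CPM in the wild type. Neither passed, and in both genes knock-out library 1 was below all 5 others.

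**Figure D2:**
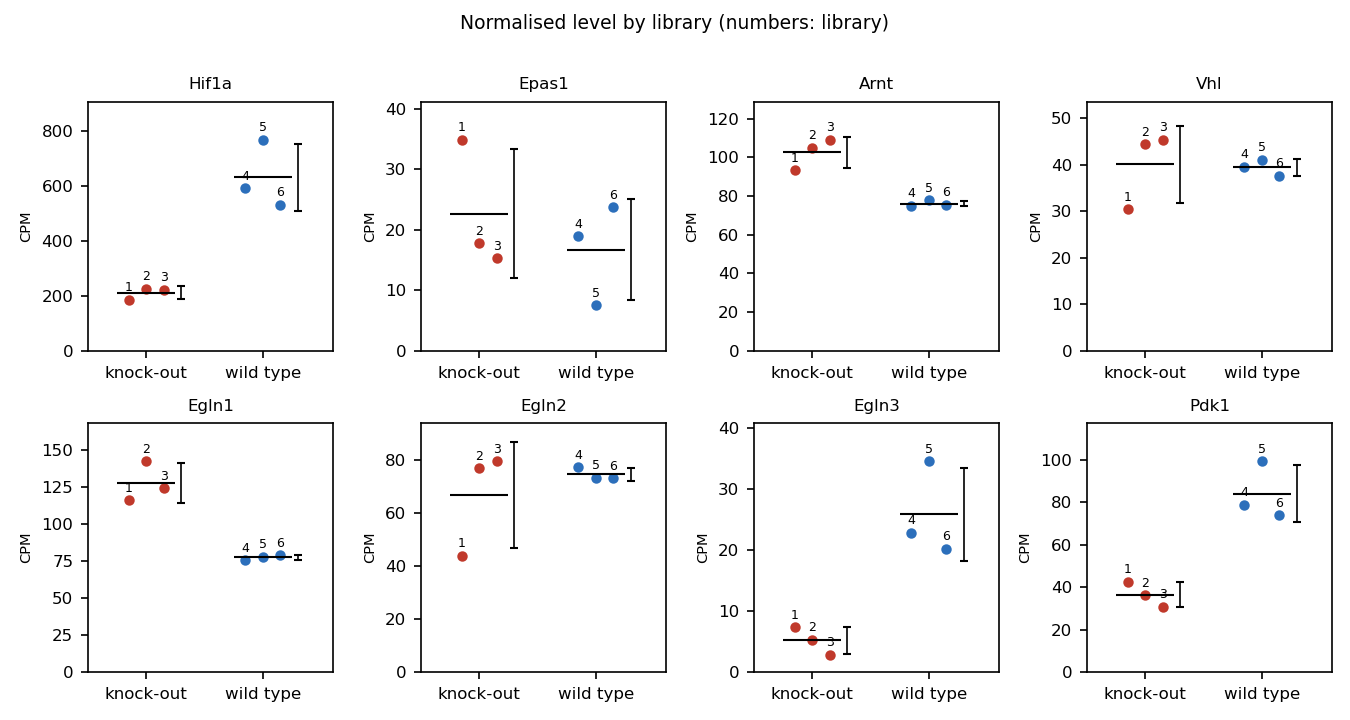
Normalised level (y axis, CPM) of 7 HIF pathway members and of Pdk1 in each knock-out library (red, left) and wild-type library (blue, right), with library numbers, group means as lines and SD as bars. Hif1a, Egln3 and Pdk1 are lower and Arnt and Egln1 higher in all 3 knock-out libraries, whereas Epas1, Vhl and Egln2 overlap.

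Neither glucose transporter passed. Slc2a1 (GLUT1), the basal transporter, had 51.1, 108 and 80.7 CPM in the knock-out, against 72.4, 77.5 and 62.4 CPM in the wild type, with knock-out library 1 lowest and library 2 highest of all 6. Slc2a3 (GLUT3), a high-affinity transporter best known from neurons, was near the lower limit of the test, at 1.22 to 2.21 CPM in knock-out and 0.94 to 1.53 CPM in wild-type libraries.

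In upper glycolysis, from glucose to triose phosphate, the housekeeping hexokinase and the platelet-type phosphofructokinase were higher in the knock-out and triose phosphate isomerase was lower. Hk1 had 143, 243 and 217 CPM in the knock-out, against 104, 112 and 102 CPM in the wild type (1.90-fold higher, log2 fold change 0.92 ± 0.20, edgeR adjusted p = 0.0219). Pfkp had 62.8, 58.1 and 55.8 CPM in the knock-out, against 31.9, 37.9 and 34.5 CPM in the wild type (1.69-fold higher, log2 fold change 0.76 ± 0.09, edgeR adjusted p = 0.00430). Both groups of 3 were clear of each other, but Hk1 in knock-out library 1 lay nearer to the wild type than to libraries 2 and 3, while Pfkp was even across the knock-out. Tpi1 had 287, 306 and 263 CPM in the knock-out, against 403, 536 and 362 CPM in the wild type (1.52-fold lower, log2 fold change -0.60 ± 0.16, edgeR adjusted p = 0.0412).

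Hk2, the hypoxia-inducible hexokinase, had 23.2, 58.4 and 38.6 CPM in the knock-out, against 28.6, 35.8 and 25.5 CPM in the wild type, so the groups overlapped. Pfkfb3, which makes the allosteric activator of phosphofructokinase, had 41.1, 60.2 and 51.3 CPM in the knock-out, against 49.6, 50.3 and 48.2 CPM in the wild type. It was the closest of the upper-pathway members to no difference together with Pfkl, the liver-type phosphofructokinase, at log2 fold changes of 0.04 ± 0.14 for Pfkfb3 and 0.04 ± 0.16 for Pfkl. Pfkfb3 turned to -0.06 and Pfkl to -0.05 with scaling by total counts. Gpi1, Pfkm and Pfkfb4 did not pass either, at log2 fold changes of 0.16 for Gpi1, 0.31 for Pfkm and -0.31 for Pfkfb4. Aldoc, the brain-type aldolase, had 2.60, 0.24 and 0.16 CPM in the knock-out, against 5.84, 5.55 and 3.20 CPM in the wild type. Its groups did not overlap, but it did not pass (edgeR adjusted p = 0.148), with knock-out library 1 well above the other two. Beside the set, the main Aldoa entry averaged 236 RPKM in the knock-out and 234 RPKM in the wild type (log2 fold change 0.09 ± 0.13, edgeR adjusted p = 0.637).

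In lower glycolysis, Pkm, the pyruvate kinase gene expressed outside liver and red cells, was the most abundant member per transcript length in the wild type, at 324 ± 74.6 RPKM (SD, n = 3), and stood at 189 ± 28.9 RPKM in the knock-out (SD, n = 3). In CPM it had 886, 803 and 712 in the knock-out, against 1210, 1644 and 1045 in the wild type, with no overlap (1.62-fold lower, log2 fold change -0.70 ± 0.19, edgeR adjusted p = 0.0425). Eno2, the neuron-type enolase, had 24.3, 14.4 and 14.7 CPM in the knock-out, against 34, 43.2 and 29.1 CPM in the wild type (1.99-fold lower, log2 fold change -0.99 ± 0.26, edgeR adjusted p = 0.0369). Both falls were seen in all 3 knock-out libraries, although knock-out library 1 was the nearest to the wild type in each. The ubiquitous enolase Eno1 had a fold change of the other sign, with 444, 828 and 728 CPM in the knock-out and 463, 578 and 422 CPM in the wild type, but did not pass (log2 fold change 0.45 ± 0.25, edgeR adjusted p = 0.228). Pgk1 and Pgam1, the kinase and mutase of phosphoglycerate, did not pass, at -0.14 and -0.15 on the log2 scale.

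At the fate of pyruvate, Pdk1 and Pdk4, which encode kinases that switch off pyruvate dehydrogenase, moved in opposite directions. Pdk1, a HIF-induced member of the family, had 42.7, 36.2 and 31.0 CPM in the knock-out, against 79.0, 99.4 and 74.0 CPM in the wild type (2.30-fold lower, log2 fold change -1.20 ± 0.16, edgeR adjusted p = 0.00601). Pdk4, best known for its rise with fasting and fatty acid use, had 23.5, 17 and 19.2 CPM in the knock-out, against 8.43, 8.22 and 10.3 CPM in the wild type (2.22-fold higher, log2 fold change 1.15 ± 0.17, edgeR adjusted p = 0.00710). Neither gene's groups overlapped, and within the knock-out each gene was highest in library 1. Beside the set, the related kinase genes Pdk2 and Pdk3 did not pass. Their log2 fold changes were 0.11 ± 0.14 for Pdk2 (edgeR adjusted p = 0.578) and -0.35 ± 0.20 for Pdk3 (edgeR adjusted p = 0.245). Ldha, the lactate dehydrogenase subunit linked to lactate formation, had 347, 430 and 386 CPM in the knock-out, against 450, 603 and 401 CPM in the wild type. It missed the threshold (log2 fold change -0.32 ± 0.18, edgeR adjusted p = 0.214). Ldhb, its counterpart of oxidative tissues, had 58.7, 16.8 and 12 CPM in the knock-out, against 77.2, 109 and 71.9 CPM in the wild type. All 3 were below the wild type, but knock-out library 1 was over 3-fold above the other two and the gene did not pass (edgeR adjusted p = 0.111). Slc16a3 (MCT4), the lactate exporter, had 11.5, 1.27 and 1.49 CPM in the knock-out and 13.3, 26.0 and 11.1 CPM in the wild type, with knock-out library 1 inside the wild-type range.

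The collagen prolyl hydroxylases modify collagen in the endoplasmic reticulum and are distinct from the Egln enzymes. P4ha1 had 300, 596 and 541 CPM in the knock-out, against 259, 250 and 255 CPM in the wild type (1.88-fold higher, log2 fold change 0.91 ± 0.26, edgeR adjusted p = 0.0450). The wild-type libraries were tightly grouped, and knock-out library 1 was closer to them than to libraries 2 and 3. P4ha2 did not pass, at 42.5 to 82.1 CPM in the knock-out and 58.8 to 86.2 CPM in the wild type.

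Of the other hypoxia-responsive members, Ero1l, the endoplasmic reticulum oxidase that reoxidises protein disulfide isomerase, had the largest rise of the 14 members that passed. It had 111, 325 and 218 CPM in the knock-out, against 71.2, 73.3 and 69.3 CPM in the wild type (3.06-fold higher, log2 fold change 1.61 ± 0.37, edgeR adjusted p = 0.0263). Ero1l lies on chromosome 14, whose 427 tested genes had a median log2 fold change of 0.40, 0.38 above that of all genes. Ndrg1, a stress-responsive cytoplasmic protein often used as a hypoxia marker, had 277, 226 and 202 CPM in the knock-out, against 489, 395 and 501 CPM in the wild type (1.96-fold lower, log2 fold change -0.97 ± 0.16, edgeR adjusted p = 0.00915). Bnip3, a mitophagy receptor, had 50.9, 51.8 and 41.8 CPM in the knock-out, against 69.5, 95.5 and 60.4 CPM in the wild type. Its groups did not overlap, and it lay just outside the threshold (log2 fold change -0.64 ± 0.19, edgeR adjusted p = 0.0528). Kdm3a, a histone H3 lysine demethylase, had 92.8, 180 and 170 CPM in the knock-out, against 90.9, 88.1 and 84.3 CPM in the wild type. It missed the threshold (log2 fold change 0.75 ± 0.25, edgeR adjusted p = 0.0731).

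The membrane carbonic anhydrases Car9 and Car12, which help to set extracellular pH, separated knock-out library 1 from the other two. Car9 had 2.25, 0.28 and 0.11 CPM in the knock-out and 0.76, 1.27 and 0.74 CPM in the wild type. Car12 had 22.0, 0.61 and 0.74 CPM in the knock-out and 7.94, 8.80 and 10.4 CPM in the wild type. In both genes library 1 was the highest of all 6 and libraries 2 and 3 were the lowest, so the mean difference between genotypes describes neither. Ankrd37, an ankyrin-repeat protein that HIF induces, ranged from 1.73 to 5.84 CPM in the knock-out and 1.95 to 3.74 CPM in the wild type.

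**Figure D3:**
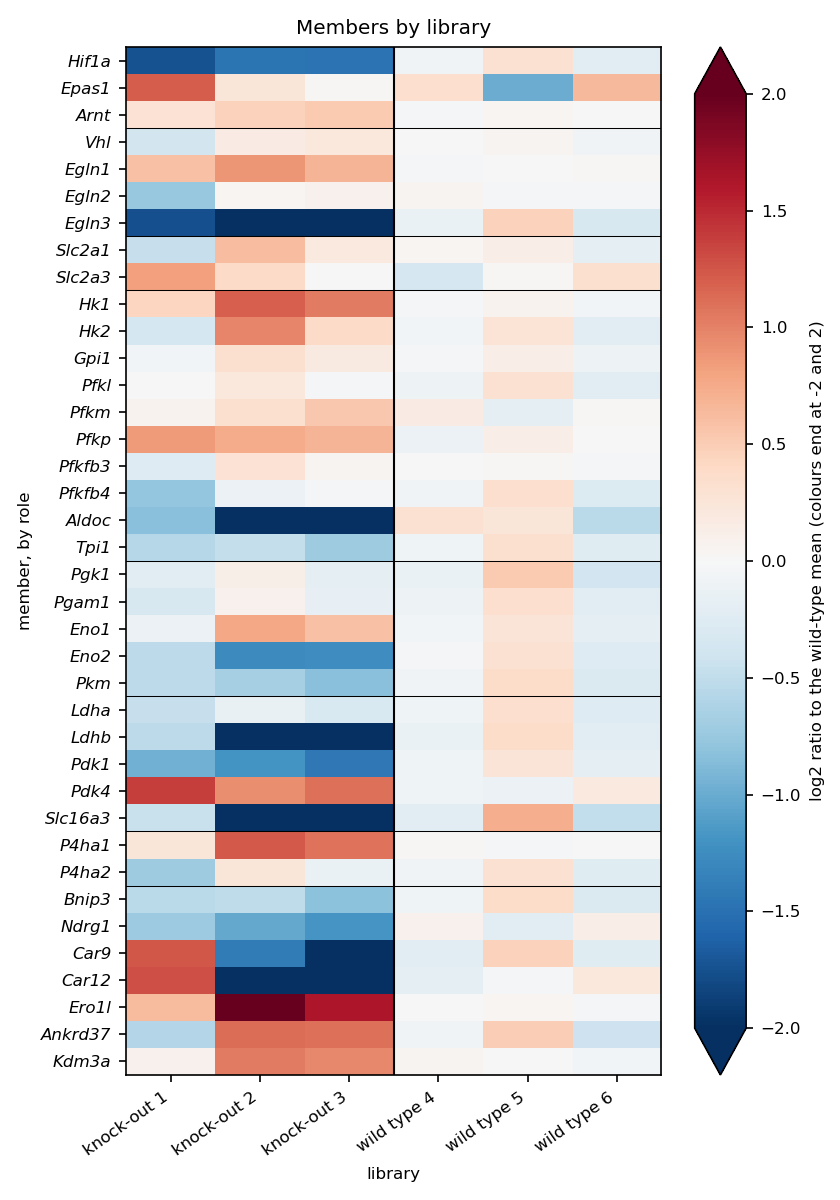
Log2 ratio of each tested member (rows, by role) to its wild-type mean in the 6 libraries (columns, knock-out left and wild type right of the vertical line), with colours ending at -2 and 2. Knock-out library 1 differs from libraries 2 and 3 for Aldoc, Ldhb, Slc16a3, Car9 and Car12, while Hif1a, Egln3, Pdk1 and Pfkp keep 1 direction in all 3.

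The calls depended on the libraries in different ways. Hif1a, Egln1, Egln3, Pfkp, Pdk1 and Pdk4 passed with any 1 of the 6 libraries left out, with a highest edgeR adjusted p of 0.0217 for Hif1a and 0.0459 for Egln3. Ndrg1 was lost without wild-type library 4 (edgeR adjusted p = 0.0508). The other 7 calls (Arnt, Hk1, P4ha1 and Ero1l higher, and Tpi1, Eno2 and Pkm lower) held without knock-out library 1, but each was lost when any 1 of the 5 others was left out. Without knock-out library 1, 15 members were higher and 13 lower, but 32.6% of 12817 genes were then higher and 33.7% lower. With the nearly identical pairs summed, edgeR called 0 members in either direction, against 0.13% of 13041 genes. In that fit 14 members had an unadjusted p under 0.05, and Hif1a had an adjusted p of 0.0945. With each pair counted as 1 sample, then, no member passed.

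Members varied within a genotype as well. Within the knock-out, between libraries 2 and 3, the members' median absolute log2 difference was 0.21, against 0.08 for all tested genes, and within the wild type, between libraries 4 and 6, it was 0.14, against 0.08. The 15 tested glycolytic enzymes and regulators (upper and lower glycolysis) leaned in 1 direction in these pairs, and so did the 23 other tested members. In the knock-out, 12 of 15 were higher in library 2 than in library 3, against 49.7% of all tested genes, with a median ratio of 1.14, as were 17 of the 23 other members. In the wild type, 14 of 15 were higher in library 4 than in library 6, against 48.7% of all genes, with a median ratio of 1.10, as were 16 of the 23 other members. Wild-type library 5 was higher than library 6 for 14 of 15, against 48.2% of all genes, with a median ratio of 1.43, and for 16 of the 23 other members. Knock-out library 1 was higher than library 2 for 4 of 15, against 50.9% of all genes, and for 10 of the 23 other members. It was higher than library 3 for 6 of 15, against 50.7% of all genes, and for 11 of the 23 other members. The genes were therefore not level among libraries of 1 genotype, and wild-type library 5 was the high one. Tpi1, Pkm, Pgk1 and Ldha, for example, had their highest CPM of the 6 libraries there. Libraries are not a replicated contrast, and no test was made of these differences.

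Intron reads, which largely come from unspliced RNA, gave a separate count in the same libraries. Of 34 members with enough intron reads, 3 were higher, against 4.98% of 10653 tested genes, and 1 lower, against 7.03%. Hif1a had 81, 109 and 100 intron reads in the knock-out, against 309, 366 and 244 in the wild type. Its intron log2 fold change of -1.66 ± 0.17 (edgeR adjusted p = 0.000614) was close to the exon value of -1.57. Egln1 was higher in introns by 0.84 ± 0.19 on the log2 scale (edgeR adjusted p = 0.0253), Pfkp by 1.10 ± 0.20 (edgeR adjusted p = 0.00886) and Ero1l by 1.91 ± 0.52 (edgeR adjusted p = 0.0463). For these 4 genes exon and intron reads passed in the same direction. Ero1l, however, had 53, 371 and 211 intron reads in the knock-out, against 55, 56 and 52 in the wild type. Its intron rise was thus absent from knock-out library 1. Pkm and Tpi1 did not pass in intron reads, with intron log2 fold changes of -0.04 ± 0.22 and -0.16 ± 0.25, and Pdk1 had -0.40 ± 0.22 (edgeR adjusted p = 0.287). Whether their exon and intron changes differ was not tested. Over the 34 members, 24 had the same sign in both counts, against 7609 of all 10257 genes tested in both, so the members did not exceed the background. Egln3, with 1 to 8 intron reads a library, was too low for the intron test.

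**Figure D4:**
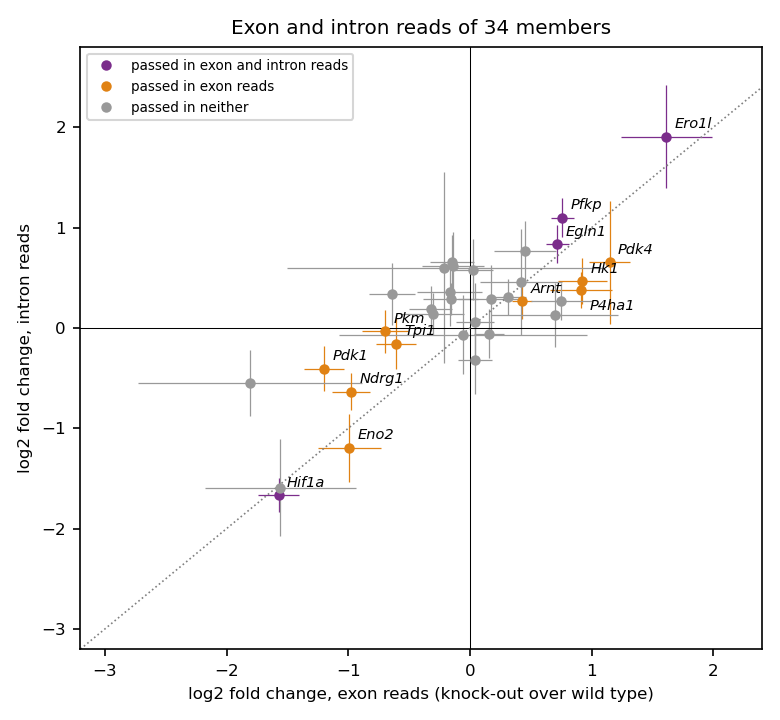
Log2 fold change (knock-out over wild type) in exon reads (x axis) and intron reads (y axis) of the 34 members tested in both, with SE bars and a dotted line of equality. Hif1a, Egln1, Pfkp and Ero1l (purple) passed in both counts, while Pkm, Tpi1 and Pdk1 (orange) passed in exon reads and lie nearer to 0 in intron reads.

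For enzymes with several genes, shares of the summed RPKM were compared, since RPKM allows levels of different genes to be set side by side. Pfkp made up 23.8%, 19.7% and 19.9% of phosphofructokinase RPKM in the knock-out, against 13.9%, 14.5% and 15.9% in the wild type. Hk2 made up 14.5%, 20.1% and 15.7% of the Hk1 and Hk2 sum in the knock-out, against 22.4%, 25.1% and 20.7% in the wild type. Eno2 made up 4.32%, 1.41% and 1.64% of the Eno1 and Eno2 sum in the knock-out, against 5.70%, 5.81% and 5.38% in the wild type. Another enolase gene, Eno3, is not in that sum and averaged 9.03 RPKM in the knock-out and 5.61 RPKM in the wild type. In the knock-out, then, the share of Pfkp was larger and the shares of Hk2 and Eno2 were smaller, with no overlap. Hk2 itself was not lower (log2 fold change 0.42, did not pass), while Hk1 was higher (0.92). Epas1 made up 15.6%, 7.16% and 6.34% of the Hif1a and Epas1 sum in the knock-out, against 3.07%, 0.96% and 4.21% in the wild type. Ldhb made up 22.0%, 6.12% and 4.93% of the Ldha and Ldhb sum in the knock-out, against 22.3%, 23.2% and 23.1% in the wild type. Knock-out library 1 was thus at the edge of the wild-type values. The Aldoc share averaged 0.13% in the knock-out and 0.66% in the wild type. Those 6 shares did not overlap between genotypes (exact permutation test, two-sided, p = 0.1, Benjamini-Hochberg 0.133 over 8 shares). With 3 libraries against 3 that p of 0.1 is the smallest the test allows, so no share could pass. The shares of Slc2a3 and Pfkfb4 overlapped.

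**Figure D5:**
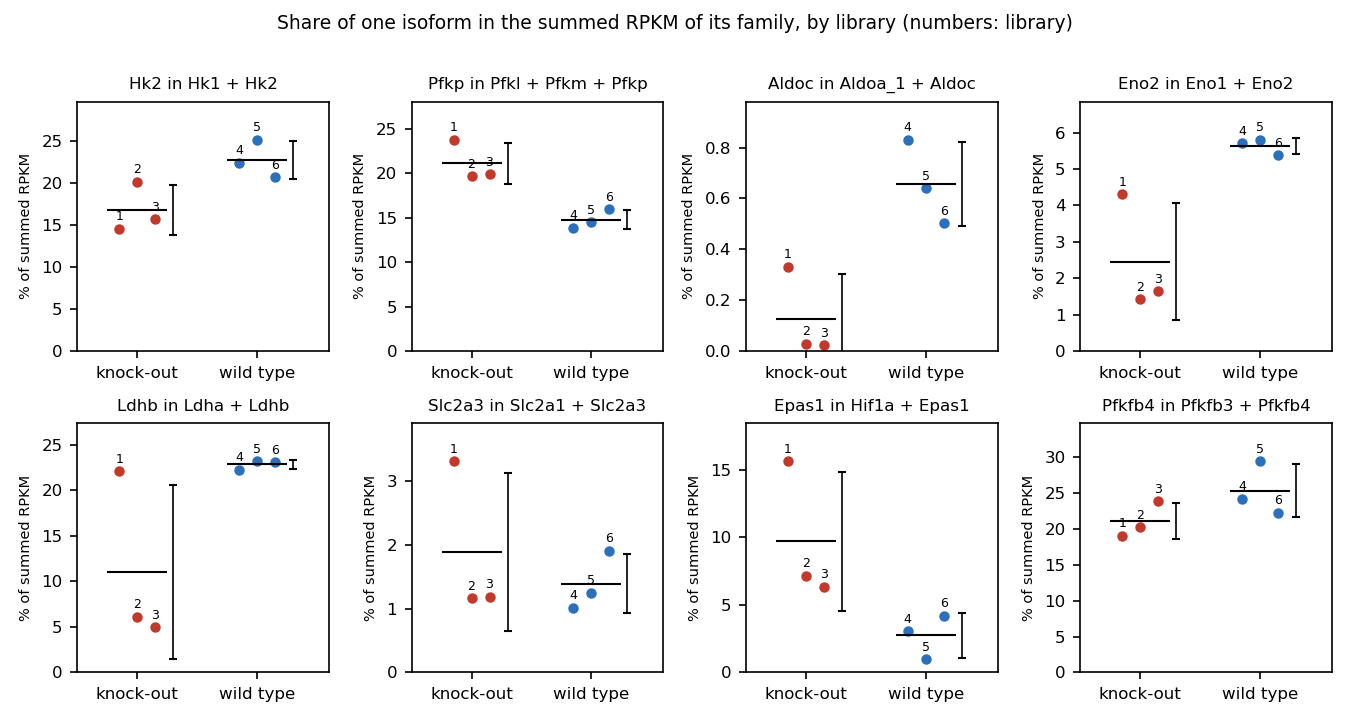
Share of 1 gene in the summed RPKM of the genes named above each panel (y axes, percent). Knock-out libraries are red (left) and wild-type libraries blue (right), with library numbers. Means are shown as lines and SD as bars, which are cut at 0 where they would reach below it. The shares of Hk2, Pfkp, Aldoc, Eno2, Ldhb and Epas1 do not overlap between genotypes, and Ldhb in knock-out library 1 is just under the wild-type libraries.

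Other genes of the same pathways were read from 3 lists that the set does not hold. Of 30 other genes of glycolysis and pyruvate handling, 22 were tested, 0 were higher and 5 lower (edgeR), and the median log2 fold change was -0.17. The 22.7% that were lower compare with 13.7% of all tested genes, and 14.1% of all were higher. At an unadjusted p under 0.05, 1 was higher and 7 lower, and after adjustment DESeq2 gave 1 higher and 5 lower and limma-voom 0 higher and 5 lower. Slc16a1 (MCT1), the lactate transporter that works in both directions, had 51.9, 105 and 98.8 CPM in the knock-out, against 811, 781 and 808 CPM in the wild type (log2 fold change -3.23 ± 0.29, edgeR adjusted p = 0.00169). Tigar, a fructose bisphosphatase that slows glycolysis, was also lower (log2 fold change -0.99 ± 0.16, edgeR adjusted p = 0.00873). Gapdh, the enzyme after triose phosphate isomerase, had 367, 443 and 397 CPM in the knock-out, against 421, 505 and 382 CPM in the wild type, and missed the threshold (edgeR adjusted p = 0.546).

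Of 32 other HIF targets, 30 were tested, 5 were higher and 4 lower, and the median log2 fold change was 0.25. Those shares of 16.7% and 13.3% were near the 14.1% and 13.7% of all tested genes. The rises were led by Hmox1, heme oxygenase 1, at 241, 612 and 386 CPM in the knock-out against 60.9, 87.8 and 55.6 CPM in the wild type (log2 fold change 2.60 ± 0.38, edgeR adjusted p = 0.00717). Bnip3l, the paralogue of Bnip3, followed at 0.73 ± 0.10 (edgeR adjusted p = 0.00577) and Kdm4b, a histone demethylase, at 0.57 ± 0.16 (edgeR adjusted p = 0.0442). Bnip3l lies on chromosome 14, like Ero1l, where the median log2 fold change was 0.40. The falls were led by Angptl4, an inhibitor of lipoprotein lipase, at -2.12 ± 0.35 (edgeR adjusted p = 0.00995), by Rab20, a small GTPase, at -1.84 ± 0.11 (edgeR adjusted p = 0.000710), and by Ak4, a mitochondrial adenylate kinase, at -1.51 ± 0.25 (edgeR adjusted p = 0.0100). Of 14 other HIF regulators, all tested, 2 (14.3%) were higher and 1 (7.14%) lower, near or below the shares of all tested genes. Siah1a, a ubiquitin ligase that acts on prolyl hydroxylases, and the coactivator Ep300 were higher, while Eloc, a partner of Vhl, was lower. Those differences were 0.44 for Siah1a, 0.44 for Ep300 and -0.21 for Eloc on the log2 scale. As in the 38 members, both directions occurred among the other HIF targets and regulators. Of the genes of these lists named as higher or lower, Slc16a1, Hmox1, Bnip3l, Angptl4, Rab20 and Ak4 passed with any 1 library left out, and Tigar, Kdm4b, Siah1a, Ep300 and Eloc did not. With the close pairs added up, edgeR called 0 genes of these lists, and 12 had an unadjusted p under 0.05.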

How the data were processed

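The authors deposited, per the file headers, whole-number counts of exon, unique exon and intron reads for 25683 genes in each library, and RPKM (reads scaled by exon length and by depth). Coordinates are on GRCm38, also called mm10, according to the submitters' processing notes. For the aligner, the counting tool and strand, the settings were not given in the sources used. Values of genes that overlap, lie antisense to each other or have near-identical copies carry that uncertainty. The test of exon counts used edgeR 4.0.16 under R 4.3.3 (filterByExpr minimum count 10, TMM, quasi-likelihood F test, genotype only, Benjamini-Hochberg adjustment over all tested genes, threshold 0.05), and intron counts in the same way. SE is the absolute log2 fold change over the root of F. CPM use TMM-adjusted library sizes, and ratios to the wild-type mean a prior of 2 reads. Shares came from the deposited RPKM.

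Library values are given for members that passed and for a fixed list of key members, and, of the other lists, for up to 3 rises and 3 falls. Some genes of these lists are counted but not reported here by name. The values of Aldoc, Ldhb, Slc16a3, Eno1, Egln2, Kdm3a, Car12, Gapdh, Pdk2 and Pdk3 were added after they were seen. The members and lists were chosen with earlier results of these data known. Alternatives, tried 1 at a time, were DESeq2 1.42.0, limma-voom (limma 3.58.1), other scalings and filters, unique exon reads, title numbers as blocks, summed libraries and leaving out each library. Scripts were tested on simulated data.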

Additional observations from a re-analysis of the deposited data

How the results depend on the processing

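Main counts were 3524 genes, 7 members higher, 7 members lower, 17 genes of the other lists and 4 members in intron reads. Leaving out 1 library each gave 1120 to 8486 genes, 3 to 15 members higher, 3 to 13 lower, 6 to 46 genes of the other lists and 2 to 18 members in intron reads. In each of these the highest number came without knock-out library 1. Summing the nearly identical pairs gave 17 genes, 0 members higher, 0 lower, 0 genes of the other lists and 1 member in intron reads. Keeping only titles ending in 2, which left out knock-out library 1 and wild-type library 5, gave 9286, 19, 14, 49 and 21. These 2 libraries, which stood apart from their groups, thus share a title number across the genotypes. Summing title stems, which joined knock-out libraries 1 and 2 and wild-type libraries 5 and 6, gave 8 members in intron reads. Scaling, filters, unique exon reads, DESeq2 and limma-voom kept these counts within 1.5 times of the main ones. The cause of these shifts was not tested.

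No paired analysis was possible because the sample numbers 1 to 6 are not shared between genotypes and the labels do not explain the title numbers. As covariates only, a replicate block on the last title number gave 11 members lower and 7 in intron reads, and a block on the number after p gave 5 members higher and 5 lower.

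The log2 fold changes that turned sign all belonged to members that did not pass. Leaving out 1 library gave -3.74 to 0.34 for Car12, -2.20 to 0.46 for Car9, -0.30 to 0.062 for Egln2, -0.019 to 0.77 for Epas1, -0.41 to 0.043 for P4ha2, -0.10 to 0.17 for Pfkfb3, -0.063 to 0.21 for Pfkl, -0.26 to 0.037 for Pgam1, -0.32 to 0.17 for Pgk1, -0.10 to 0.41 for Slc2a1 and -0.075 to 0.18 for Vhl. With summed pairs Car12 was 0.33, Car9 0.26, Pfkfb3 -0.027, Pfkl -0.047 and Vhl -0.078. With titles ending in 2, Egln2 was 0.045, Epas1 -0.37, P4ha2 0.22, Pfkfb4 0.066, Pgam1 0.11 and Pgk1 0.22. With total counts Pfkfb3 was -0.060, Pfkl -0.055 and Vhl -0.081, with limma-voom Vhl was -0.0056, and with the block on the number after p Pfkfb3 was -0.036 and Vhl -0.075. The Slc2a3 share differed by 0.50 percentage points, knock-out minus wild type, and by -0.21 to 0.86 with 1 library left out, the lowest without knock-out library 1.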
